A study of Capra hircus with 20 samples.

Results

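The hypothalamus of female Jining grey goats at 2 months of age (M2, 60 days) was compared with that of newborn goats (D1, 1 day), across all genes and by function and cell type. The comparison used 10 of the 20 libraries of the study, 5 goats at M2 and 5 at D1, chosen by their age label. The other 10 libraries came from goats of 120 days (M4) and 180 days (M6). All goats were untreated animals kept under the same feeding management, with 1 strand-specific library depleted of ribosomal RNA per goat, so the stages differ in age alone by their labels. Expression was measured as FPKM, the fragments of a gene scaled by the length of its exons and by the mapped fragments of its library.

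In the newborn ruminant brain, neurons have largely been born, while glial cells still divide and oligodendrocytes wrap axons in myelin. Myelin is rich in cholesterol, and because plasma cholesterol hardly enters the brain, the cells of the brain make it themselves through the mevalonate pathway. The hypothalamus also releases the peptides that drive growth, feeding and, later, puberty. Each library held RNA of the whole tissue, so fewer cells of a type and less RNA per cell cannot be told apart in what follows.

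Some libraries stood apart before any comparison. The summed FPKM ranged from 311570 to 355557 at D1 and from 297889 to 354265 at M2, and did not differ detectably (difference -11763, two-sided exact permutation test, p = 0.373, n = 5 per stage). In M2 replicate 3, a single gene, KLHDC1, held 23.9% of the summed FPKM, against 1.19% to 4.32% in the other 9 libraries. Each M2 library listed more genes at 0 (4194 to 4750) than any D1 library (3478 to 3782). All M2 libraries also had a lower mapping rate than all D1 libraries, with M2 replicates 1 and 3 the lowest of the 10, so the mapping rate and the age cannot be told apart between these stages. D1 replicate 4 had a summed FPKM of 1301 over 24 marker genes of cortex, hippocampus, striatum and thalamus, against 83.7 to 156 in the other D1 libraries, and 1400.2 over 28 mature myelin genes, against 13811 to 18648. M2 replicate 4 was likewise the highest M2 library for the same 24 markers, at 372 against 74.5 to 110 in the others. Its myelin sum was 3596, near the lowest of the M2 libraries (3211 to 9496). Counts are also given without M2 replicates 1 and 3 or without D1 replicate 4, where these libraries moved them most. The counts without D1 replicate 4 keep M2 replicate 4.

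The defining genes of the hypothalamus were high in few libraries. The vasopressin gene AVP was 176, 1.01, 2.84, 0.286 and 0.600 FPKM in D1 replicates 1 to 5, and 1.48, 0.480, 0.974, 2.57 and 3.15 FPKM in M2 replicates 1 to 5. PMCH, the precursor of melanin-concentrating hormone, was 303 FPKM in D1 replicate 1 and at most 3.37 FPKM in the other 9 libraries. OXT (oxytocin) and HCRT (orexin) were likewise above 4 FPKM in D1 replicate 1 and M2 replicate 1 only. Of 26 transcription factors that mark hypothalamic regions, between 2 and 12 reached 1 FPKM in a D1 library and between 3 and 12 in an M2 library. NKX2-1, which specifies the ventral hypothalamus, ranged from 0 to 3.17 FPKM at D1 and from 0.0272 to 2.26 FPKM at M2. AVP, PMCH, OXT, HCRT and NKX2-1 thus ranged widely between goats of the same stage, and their D1 and M2 ranges overlapped. The share of each hypothalamic region in a library was not measured.

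No gene passed the criteria for a DEG in M2 vs. D1 (limma, adjusted p under 0.05 with a log2 fold change beyond 1 in either direction), which is 0% of the 16771 genes tested, and the smallest adjusted p was 0.104. At an unadjusted p under 0.05, 1048 genes (6.25%) were higher and 1568 genes (9.35%) were lower at M2. All 5 M2 libraries were above all 5 D1 libraries for 252 genes (1.5%) and below them for 389 genes (2.32%). The genes that were higher at the unadjusted threshold were of low abundance, with a median of 3.41 FPKM over the 20 libraries and a median log2 fold change of 1.17. The lower genes were more abundant and differed less, with a median of 20.5 FPKM and a median log2 fold change of -0.65. The median log2 fold change of all genes tested was -0.07. The split between directions depended on the scaling, since 40.1% of the genes at the unadjusted threshold were higher as deposited, but 52.8% after median-ratio scaling and 50.7% after quantile normalization.

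M2 replicates 1 and 3 carried much of this. Either of them held the highest M2 value for 89.8% of the 1048 higher genes, and the lowest M2 value for 92.5% of the 1568 lower genes. Without both, 360 genes (2.16%) were higher and 417 genes (2.51%) were lower at the unadjusted threshold. With the mapping rate as a covariate, the counts were 590 (3.52%) and 437 (2.61%). Without D1 replicate 4, they were 920 (5.5%) and 1375 (8.22%). A fit that weighted each library by its quality called 91 DEGs higher (0.543%) and 57 DEGs lower (0.34%) at M2, the largest count among the alternatives. The gene names below therefore stand for values, and none of them for a called change unless a fit is named. Each count of a list with all libraries is to be read beside the shares of all genes, 6.25% higher and 9.35% lower. Counts without M2 replicates 1 and 3 belong beside 2.16% and 2.51%, and those with the mapping rate as a covariate beside 3.52% and 2.61%. Those without D1 replicate 4 belong beside 5.5% and 8.22%.

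Among genes whose groups did not overlap and whose higher stage averaged at least 1 FPKM, RUNX2 had the smallest p of the named genes higher at M2. RUNX2, the transcription factor that directs bone formation, lies on chromosome 23 (29926106 to 30269961, assembly ARS1.2). It was 3.47, 6.97, 3.01, 3.17 and 5.42 FPKM in D1 replicates 1 to 5 and 20.01, 16.8, 22.7, 14.9 and 10.9 FPKM in M2 replicates 1 to 5, a log2 fold change of 1.96 (SE 0.39, limma adjusted p = 0.104). The lowest M2 library was thus above the highest D1 library, and the log2 fold change was 1.72 without M2 replicates 1 and 3 and 1.17 with the mapping rate as a covariate. ZBTB7C, a zinc finger transcription factor gene, was 8.81, 5.88, 6.48, 8.96 and 8.996 FPKM at D1 and 119.5, 26.3, 40.6, 17.9 and 19.9 FPKM at M2 (log2 fold change 2.13, SE 0.47). Here M2 replicate 1 stood far above the rest, and the value was 1.44 without replicates 1 and 3 and 1.00 with the covariate.

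HRH2, the histamine H2 receptor, was 1.40, 1.57, 0.494, 2.55 and 1.01 FPKM at D1 and 8.57, 3.93, 4.29, 9.83 and 3.52 FPKM at M2. Its log2 fold change of 2.06 (SE 0.46) was 1.97 without M2 replicates 1 and 3, so the difference was about as large in the other 3 M2 libraries. It was 1.54 at M4 and 0.48 at M6, both against the same D1 libraries. The further 11 named genes with the smallest p among those higher at M2 were LURAP1L, CSMD2, BANP, MEI1, GALNT18, AIM1, ARID3B, SLC28A1, PCYT1B, CCDC57 and ZNF710. Their log2 fold changes ranged from 1.06 for AIM1 to 2.81 for SLC28A1, a nucleoside transporter that was between 0.107 and 0.289 FPKM at D1 and between 0.531 and 5.01 FPKM at M2. With the covariate the value of SLC28A1 was 1.34. CSMD2 encodes a large synaptic membrane protein, ARID3B a DNA-binding protein, and PCYT1B an enzyme of phosphatidylcholine synthesis. One assembled locus without a gene name also ranked among the 15.

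Of the 13 named genes lower at M2 by the same criteria, CABP2 had the largest log2 fold change. CABP2, a calcium-binding protein known from sensory cells, lies on chromosome 29 (46446866 to 46451638). It was 3.12, 4.00, 2.23, 4.65 and 2.57 FPKM at D1 and 0.284, 0.362, 0.207, 0.244 and 0.0998 FPKM at M2, a log2 fold change of -3.33 (SE 0.66, limma adjusted p = 0.104). Both groups were tight and far apart, and the value was -3.38 without M2 replicates 1 and 3. The value was smaller, at -2.14, with the mapping rate as a covariate. It was a DEG with a pseudocount of 1 FPKM, in the fit of only these 10 libraries and with library quality weights, and its adjusted p over all alternatives ranged from 0.00552 to 0.902. At M4 and M6 it averaged 0.612 ± 0.308 and 1.54 ± 1.35 FPKM (SD, n = 5).

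KLF9, a transcription factor gene induced by thyroid hormone and glucocorticoids, was 53.2, 67.1, 71.7, 57.0 and 72.3 FPKM at D1 and 11.8, 34.4, 26.2, 32.2 and 23.98 FPKM at M2. The highest M2 library was well below the lowest D1 library, with a log2 fold change of -1.40 (SE 0.30) that was -1.09 without M2 replicates 1 and 3. Its mean was 46.7 ± 12.8 FPKM at M4 and 52.6 ± 19.3 FPKM at M6, so the lowest stage mean was that of M2. The other named genes among the 15 lower genes with the smallest p were ALG11, UBE2D3, ALAS2, CDC42, FKBP3, PTTG1, VIMP, ARPC5, CMTM6, C11H9orf78 and SRM, with 2 loci known only by a number. ALG11 (N-glycan assembly) had a log2 fold change of -1.15, UBE2D3 (a ubiquitin-conjugating enzyme) of -0.92 and SRM (spermidine synthase) of -0.85. CDC42 and ARPC5, both of which act on the assembly of actin filaments, had values of -0.79 and -0.91. CDC42 averaged 113 ± 13.8 FPKM at D1 and 65.8 ± 11.7 FPKM at M2 (SD, n = 5).

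**Figure D1:**
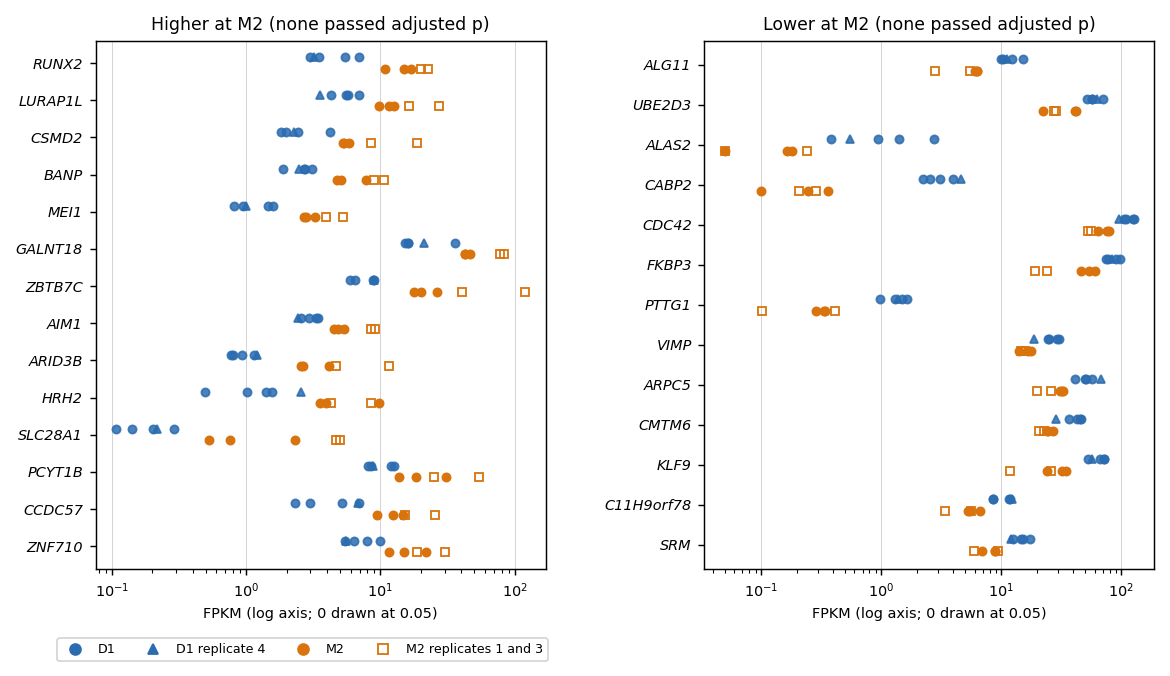
FPKM on a log axis (0 drawn at 0.05) in each D1 library (blue) and M2 library (orange), for the named genes with the smallest p among non-overlapping genes, higher at M2 on the left and lower at M2 on the right. The open squares of M2 replicates 1 and 3 often lie at the far end, as for ZBTB7C (119.5 FPKM in M2 replicate 1), while for CABP2 all M2 libraries lie between 0.0998 and 0.362 FPKM.

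Cholesterol synthesis and the nuclear genes of the respiratory chain had the largest shares of lower genes at M2 among the 49 lists, and their order changed when single libraries were left out. Of 22 cholesterol genes tested, 15 were lower and 0 higher at the unadjusted threshold, 21 had a negative log2 fold change, and the median was -0.83. HMGCS1, which makes HMG-CoA at the start of the mevalonate pathway, lies on chromosome 20 (31413652 to 31436393). It was 727, 766, 1140.2, 220.2 and 703 FPKM in D1 replicates 1 to 5 and 98.5, 324, 186, 156 and 249 FPKM in M2 replicates 1 to 5. Only D1 replicate 4, the library low in myelin genes, overlapped with M2, and the log2 fold change was -1.75 (SE 0.37, limma adjusted p = 0.104).

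SQLE, which makes the epoxide that leads into the sterol branch, was 95.4, 109, 133, 63.3 and 114 FPKM at D1 and 25.7, 64.6, 34.2, 45.9 and 49.7 FPKM at M2. Its pattern was the same, with D1 replicate 4 within the range of M2 (log2 fold change -1.25, SE 0.27). MVD, FDPS and MSMO1, which act before and after SQLE in the pathway, had log2 fold changes of -1.55, -1.26 and -1.44. FDPS and MSMO1 were named after their values were seen.

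The cholesterol genes also differed where the doubtful libraries were left out. D1 replicate 4 had the lowest summed FPKM of the list at D1 (673, against 2011 to 2991). The fit without it was thus bound to show a larger difference and is no independent check. Genes of 1 list were measured in the same libraries, so their counts are not separate evidence. Without D1 replicate 4, 18 of the 22 genes were lower at the unadjusted threshold, beside 8.22% of all genes, and the median was -1.21. For 14 of them all M2 libraries were then below the remaining D1 libraries, against 5.06% of all genes tested. Of the 10 DEGs that this fit called among all genes (0.0598%), 6 belonged to this list, among them HMGCS1, MVD, FDPS, MSMO1 and ACAT2. Without M2 replicates 1 and 3, 9 genes were lower and the median was -0.66. With the mapping rate as a covariate 7 were lower and the median was -0.86, and with quality weights 9 were DEGs. The median was -0.76 after median-ratio scaling and -0.74 after quantile normalization.

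The summed FPKM of the list was 2011, 2254, 2991, 673 and 2193 in D1 replicates 1 to 5 and 410, 1252, 744, 667 and 904 in M2 replicates 1 to 5. The later stages lay near M2, at 718 to 981 at M4 and 552 to 1039 at M6, although these comparisons share the D1 libraries. HMGCS1 had a log2 fold change against D1 of -1.78 at M4 and -2.01 at M6, beside -1.75 at M2.

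**Figure D2:**
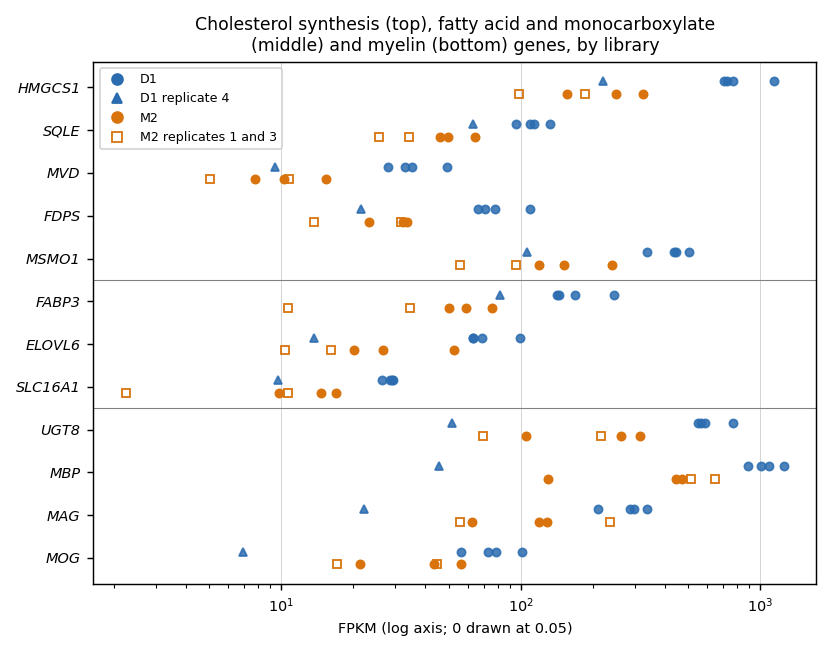
FPKM on a log axis in each D1 (blue) and M2 (orange) library for genes of cholesterol synthesis, fatty acid and monocarboxylate handling, and myelin. D1 replicates 1, 2, 3 and 5 lie to the right of every M2 library for HMGCS1, while D1 replicate 4 (triangle) lies among the M2 libraries, and in the myelin genes MBP, MAG and MOG it is the lowest library of all.

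Other lipid genes had fewer members past the unadjusted threshold, and their counts depended on the same libraries. Of 19 genes of fatty acid synthesis and elongation, 3 were lower (FABP3, ELOVL6 and ACSL3) and 0 higher, with a median of -0.31. Without D1 replicate 4, 6 were lower and for 6 all M2 libraries lay below the other D1 libraries, beside 8.22% and 5.06% of all genes. Without M2 replicates 1 and 3, 1 was lower. FABP3, a carrier of long-chain fatty acids, was 141, 144, 245, 82.3 and 168 FPKM at D1 and 10.6, 76.0, 34.4, 58.9 and 50.4 FPKM at M2 without overlap (log2 fold change -1.94, SE 0.50). That value was -1.27 without M2 replicates 1 and 3 and -0.59 with the mapping rate as a covariate. Of 24 genes of sphingolipid and galactolipid synthesis, 3 were lower (SPTLC1 and SPTLC2, subunits of the first enzyme of the pathway, and DEGS1) and 1 was higher. Without D1 replicate 4, 6 were lower and 7 lay below without overlap, beside the same 8.22% and 5.06% of all genes. Without M2 replicates 1 and 3, 0 were lower and 0 higher. The higher gene was SGMS2, a sphingomyelin synthase, at 3.52 to 6.91 FPKM at D1 and 7.93 to 26.4 FPKM at M2. SLC16A1, the monocarboxylate transporter that carries lactate and ketone bodies, had a log2 fold change of -1.33 (SE 0.53), with M2 replicate 1 at 2.25 FPKM and D1 at 9.67 to 29.3 FPKM.

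The result for the mature myelin genes turned on D1 replicate 4. With all libraries, none of the 28 tested was past the unadjusted threshold in either direction, and their median was -0.44. MBP, a main protein of central myelin, was 1250.7, 1090.1, 890.1, 45.6 and 1011.0 FPKM at D1 and 515, 474, 649, 130.3 and 444 FPKM at M2, a log2 fold change of -0.52 with an SE of 1.09. In 4 of the 5 D1 libraries it was above every M2 library, and in D1 replicate 4 it was below them all. Without D1 replicate 4 the median of the list was -0.98, 2 of the genes were lower at the unadjusted threshold, and for 8 of 28 all M2 libraries were below the remaining D1 libraries, beside 5.06% of all genes. D1 replicate 4 stood apart by its low level of these same genes, so the fit without it is no independent check. M2 replicate 4, at 130.3 FPKM for MBP, was kept in that fit. With the mapping rate as a covariate the median was -1.12 and 0 passed the threshold. MAG and MOG had log2 fold changes of -0.68 and -0.50, each with an SE of at least 0.84. UGT8, which makes the galactolipids of myelin, had a value of -1.15 (SE 0.88). The levels of these genes moved with those of cholesterol synthesis in D1 replicate 4, and their part in the cholesterol result was not tested.

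Of 19 genes of oligodendrocyte progenitors and newly formed oligodendrocytes, 2 were lower, beside 9.35% of all genes. RRAS2, a small GTPase, was 66.0, 62.1, 62.3, 13.2 and 31.0 FPKM at D1 and 18.5, 25.5, 19.8, 15.04 and 26.8 FPKM at M2, and FYN, a kinase active in early myelination, had a log2 fold change of -0.41 (SE 0.16). None of the 19 was lower without M2 replicates 1 and 3. OLIG1, a lineage transcription factor, had a value near 0 (-0.04, SE 0.44), which turned to 0.03 after median-ratio scaling and 0.29 after quantile normalization.

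**Figure D3:**
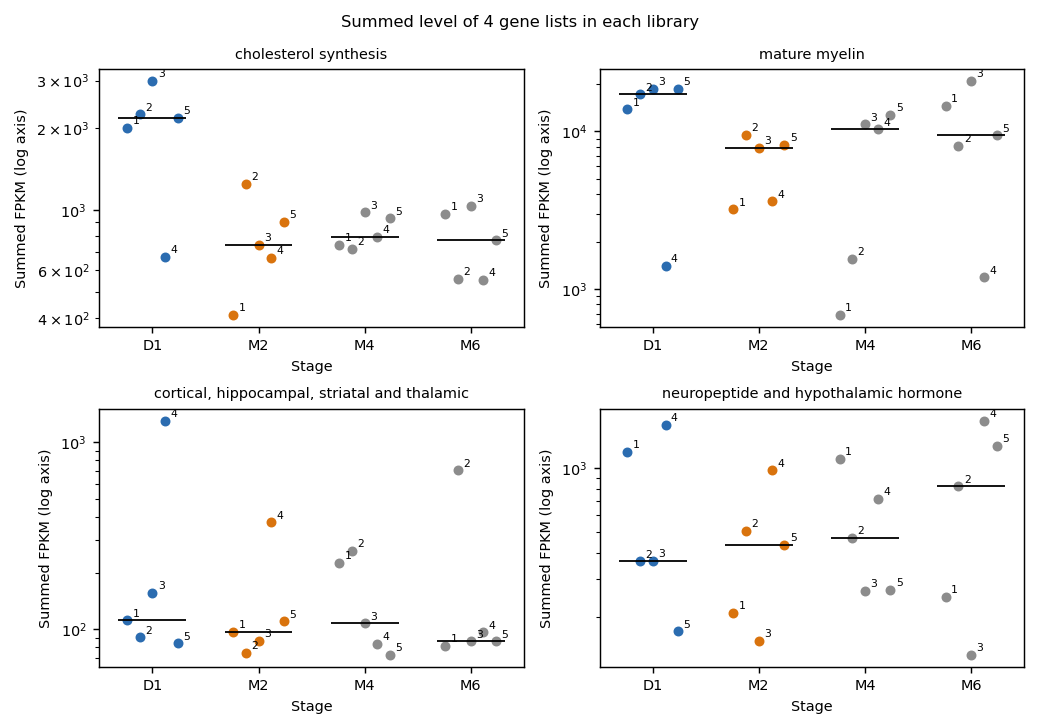
Summed FPKM (log axis) of 4 gene lists in each library at D1 (blue), M2 (orange), and M4 and M6 (grey), numbered by replicate, with the stage median as a line. Cholesterol synthesis is at 2011 or above in 4 of 5 D1 libraries and at 1252 or below in every M2 library, while D1 replicate 4 is at 673 for cholesterol synthesis, at 1400.2 for myelin and at 1301 for the cortical, hippocampal, striatal and thalamic list.

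Some cell division genes were lower at M2 and none was higher at the unadjusted threshold. Of 44 genes of the cell cycle and DNA replication tested, 12 were lower, beside 9.35% of all genes, and 0 higher. The log2 fold change was negative for 34 and positive for 10, and the median was -0.44. PBK, a mitotic kinase, averaged 3.75 ± 1.27 FPKM at D1 and 1.64 ± 0.732 FPKM at M2 (SD, n = 5), a log2 fold change of -1.17 (SE 0.33). CDK1, which starts mitosis, was 3.10, 1.49, 3.29, 2.48 and 1.81 FPKM at D1 and 0.0316, 1.63, 0.957, 0.514 and 1.48 FPKM at M2, so 1 M2 library exceeded the lowest D1 library (log2 fold change -1.70, SE 0.52). BIRC5 (-1.73) and UBE2C (-2.13), both of which act in chromosome separation, were at most 3.01 FPKM at D1 and at most 0.487 FPKM at M2. PTTG1, the securin of cell division, was 0.971 to 1.65 FPKM at D1 and 0.101 to 0.415 FPKM at M2 without overlap. It lies outside the list and was named by its rank among all genes. The median of the list was -0.66 with the mapping rate as a covariate and -0.46 without M2 replicates 1 and 3, where 7 genes were lower. Without D1 replicate 4, 7 were lower, and 5 were when only genes with a mean of at least 1 FPKM were tested.

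Genes of neural progenitors and immature neurons showed no common direction. Of 14 progenitor genes, VIM and NES, the filament proteins of radial glia, were lower (both -1.04) and SOX2, a factor of progenitors and glia, was higher (0.55, SE 0.26). VIM was 92.1 to 227 FPKM at D1 and 33.3 to 133 FPKM at M2, and it was a DEG with quality weights. Of 22 genes of immature neurons, IGF2BP3, a fetal RNA-binding protein, was higher without overlap (3.66 to 4.66 FPKM at D1 and 6.34 to 23.1 FPKM at M2) and NREP was lower (-0.69, SE 0.32). DCX, the defining protein of migrating neurons, was 2.39 to 10.8 FPKM at D1 and 0.590 to 5.90 FPKM at M2, with a log2 fold change of -0.87 (SE 0.48). Without M2 replicates 1 and 3, 0 progenitor genes were higher and 1 was lower. With the mapping rate as a covariate 0 were higher and 2 lower. Of the immature neuron genes, 1 was higher and 0 lower in the first of these fits, and 3 and 0 in the second. Their median of -0.21 became 0.10 and 0.37.

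The summed FPKM of the nuclear genes of the respiratory chain was 858 and 1194 in M2 replicates 1 and 3 and 1648 to 2888 in the other 8 libraries. Of 17 nuclear genes of the respiratory chain tested, 11 were lower and 0 higher, all 17 had a negative log2 fold change, and the median was -0.60. NDUFS1, the largest subunit of complex I, was 74.0, 74.7, 89.9, 103 and 71.7 FPKM at D1 and 22.6, 65.2, 32.5, 65.0 and 60.3 FPKM at M2. Every M2 library was below every D1 library, but M2 replicates 1 and 3 were far below the other 3. NDUFA9 (-0.79), NDUFV2 (-0.69) and SDHC (-0.60) were also lower, but with overlap between the stages, and NDUFS1 was the only gene of the list without overlap. Without M2 replicates 1 and 3, 1 of the 17 genes was lower and the median was -0.27, without D1 replicate 4 there were 4 lower lower, and with the mapping rate as a covariate 0 were lower and the median was -0.14. Of 20 genes of glycolysis and lactate handling, 3 were lower (PDHB, PGK1 and LDHB, at -0.55, -0.79 and -0.78), and all 3 had a positive value with the mapping rate as a covariate (0.04, 0.12 and 0.11). None of the 20 was lower without M2 replicates 1 and 3. The 13 protein genes of the mitochondrial genome had a median of 0.14, with 0 higher and 3 lower. Their summed FPKM went the other way in M2 replicate 1, where it was 26482, against 8147 to 17932 in the other 9 libraries.

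Chaperones of the endoplasmic reticulum and heat shock proteins differed in the same libraries. Of 25 tested, 8 were lower and 0 higher with a median of -0.39. HSPD1, the mitochondrial chaperonin, averaged 38.5 ± 6.03 FPKM at D1 and 23.1 ± 6.16 FPKM at M2 (SD, n = 5), and CANX, DNAJB11 and PDIA3, which fold proteins of the secretory pathway, had values of -0.57, -0.70 and -0.41. Without M2 replicates 1 and 3, 0 of them were lower and the median was 0.00. Of 58 cytosolic ribosomal protein genes, none was past the threshold, with a median of -0.11 that became 0.16 after quantile normalization.

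Blood and immune genes gave a small number of differences. ALAS2, the first enzyme of heme synthesis in red cell precursors, was 0.940, 2.75, 1.40, 0.548 and 0.381 FPKM at D1, and at M2 it was listed at 0 in replicates 1 and 4 and was 0.183, 0.242 and 0.165 FPKM in replicates 2, 3 and 5. The log2 fold change on the log2(FPKM + 0.1) scale was -2.48 (SE 0.48). It passed the adjusted threshold at M4 (adjusted p = 0.00694) and M6 (adjusted p = 0.0213) against the same D1 libraries in the limma fit. AHSP, the chaperone of alpha globin, was lower too (-1.63, SE 0.77). Of the 6 erythroid genes tested, 2 were lower, beside 9.35% of all genes. A negative log2 fold change was found for 4 of them and a positive one, of up to 0.39, for 2. Only 1 was lower without D1 replicate 4, after median-ratio scaling or with the mapping rate as a covariate. HBBC, a beta globin gene whose reads may be shared with its near copies, was 1.40, 129, 25.9, 46.5 and 59.1 FPKM at D1 and 6.63, 6.11, 41.3, 1.00 and 2.90 FPKM at M2, so the groups overlapped widely. S100A8, a neutrophil protein, was 1.03 to 3.38 FPKM at D1 and 0.306 to 0.587 FPKM at M2 without overlap.

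Of 20 microglia genes, 19 had a positive log2 fold change and the median was 0.39, but SPI1, the master factor of the lineage, was the only one past the unadjusted threshold (0.85, SE 0.40). C1QB and TYROBP had values of 0.58 and 0.72. TYROBP was 48.3 FPKM in M2 replicate 1 and 14.6 to 32.2 FPKM in the others, and the summed FPKM of the list was 625 in M2 replicate 1 against 226 to 397 in the other M2 libraries. Without M2 replicates 1 and 3 the median was 0.23. The 24 interferon and antigen presentation genes had a median of 0.23, with 1 gene higher, beside 6.25% of all genes.

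Of 16 astrocyte genes, 1 was higher, beside 6.25% of all genes. AGT, the angiotensin precursor that astrocytes make, was 44.1, 19.5, 10.6, 7.48 and 47.0 FPKM at D1 and 56.7, 70.8, 60.3, 28.6 and 55.01 FPKM at M2 (log2 fold change 1.37, SE 0.52), and 1 M2 library lay within the range of D1. GFAP and AQP4, the defining markers, had values of -0.06 (SE 0.61) and -0.48 (SE 0.34), and that of GFAP was 0.01 after median-ratio scaling.

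Of 21 endothelial genes, 3 were lower, beside 9.35% of all genes, and 1 was lower with the mapping rate as a covariate. The 3 were TFRC, the transferrin receptor that takes up iron (-0.59, SE 0.19), SLCO1A2, an organic anion and thyroid hormone carrier (-0.75, SE 0.29), and SLC16A1. CLDN5, the tight junction protein that defines the barrier, had a value of -0.02 (SE 0.38), with M2 replicate 3 at 91.1 FPKM and the other M2 libraries at 14.2 to 36.5 FPKM, and its sign turned after median-ratio scaling (0.05) and quantile normalization (0.27).

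Collagens depended on which M2 libraries were kept. Of 31 collagen chain genes, 5 were higher and 0 lower, among them COL26A1 (2.16), COL27A1 (2.18), COL24A1 (1.93) and COL11A1 (0.96). COL27A1 was 5.36 and 21.8 FPKM in M2 replicates 1 and 3 and 0.553 to 2.40 FPKM in the other M2 libraries. Without these 2 replicates 0 collagen genes were higher and 6 were lower, beside 2.16% and 2.51% of all genes, and the median went from 0.16 to -0.43. COL3A1 and COL1A1, fibrillar collagens of connective tissue, were among those 6. COL3A1 was 28.5, 15.9, 24.1, 7.85 and 41.0 FPKM at D1 and 6.75, 6.61, 45.9, 4.62 and 6.36 FPKM at M2, so M2 replicate 3 was the highest of the 10 libraries and the other 4 were below all D1 libraries. COL1A1 was 40.4 FPKM in M2 replicate 3 and 0.211 to 1.69 FPKM in the other M2 libraries. Of 18 genes of meninges and fibroblasts, none was past the threshold with all libraries. Without M2 replicates 1 and 3, 7 were lower, beside the same 2.51% of all genes.

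**Figure D4:**
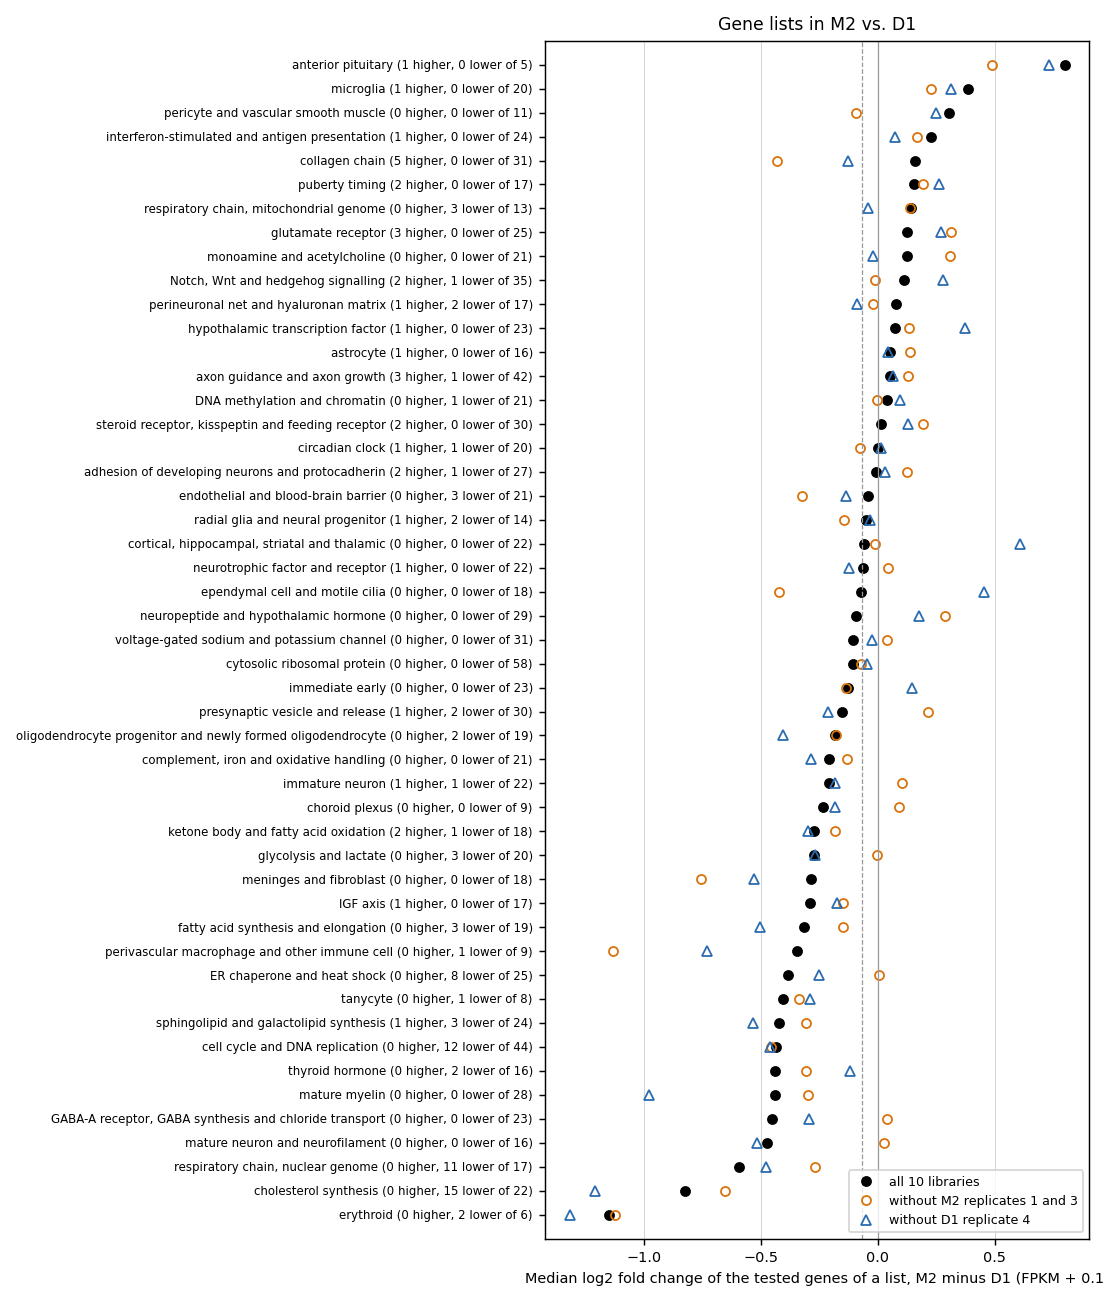
Median log2 fold change (M2 minus D1) of the genes tested in each of 49 lists, with all 10 libraries (black), without M2 replicates 1 and 3 (orange) and without D1 replicate 4 (blue), and the counts at an unadjusted p under 0.05 beside each name. The solid line is at 0 and the dashed line is the median of all genes (-0.07), and cholesterol synthesis (-0.83) and the 6 erythroid genes (-1.15) have the lowest medians with all 10 libraries, while the collagen list changes sign without M2 replicates 1 and 3.

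Neurons and their signalling genes showed few differences. Of 16 genes of mature neurons and neurofilaments none was past the threshold and the median was -0.48, which became 0.03 without M2 replicates 1 and 3 and 0.89 with the mapping rate as a covariate. SNAP25, a protein of vesicle fusion, was 388 to 770 FPKM at D1, 68.1 and 239 FPKM in M2 replicates 1 and 3, and 373 to 625 FPKM in the other M2 libraries. Its log2 fold change was -0.85 (SE 0.63) and 0.91 with the covariate, and that of SYT1, the calcium sensor of release, was -0.59 and 1.19. RBFOX3, the neuronal marker NeuN, was at 0.70 (SE 0.75). Of 30 presynaptic genes 1 was higher (SYT2, another calcium sensor, at 1.36, SE 0.48) and 2 were lower. None of 23 GABA genes and none of 31 voltage-gated sodium and potassium channel genes was past the threshold, with medians of -0.45 and -0.10. With the mapping rate as a covariate 12 presynaptic, 3 GABA and 5 channel genes were higher, and without M2 replicates 1 and 3 the presynaptic median was 0.21.

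Of 25 glutamate receptor genes 3 were higher and 0 lower, beside 6.25% higher among all genes. None of the 25 was higher without M2 replicates 1 and 3 or with the mapping rate as a covariate, beside 2.16% and 3.52% of all genes. The median of the list was 0.13 with all libraries, and 0.31 and 0.52 in these fits. GRM7, a presynaptic metabotropic receptor, was 22.3, 35.3, 22.4, 30.1 and 18.4 FPKM at D1 and 74.1, 30.3, 43.6, 42.8 and 46.3 FPKM at M2. Only M2 replicate 2 fell within the range of D1, and the log2 fold change was 0.86 (SE 0.28) and 0.65 without M2 replicates 1 and 3. GRIK3, a kainate receptor subunit, and GRM3 had values of 0.97 (SE 0.39) and 0.83 (SE 0.37). Of 42 axon guidance genes, 3 were higher, a share near the 6.25% of all genes, and 1 was higher without M2 replicates 1 and 3. PLXNA2 (1.61), RGMA (1.14) and ROBO1 (0.99), which encode receptors or ligands of growing axons, were higher and SLIT3 (-0.46), a ligand of ROBO1, was lower. Among 17 genes of perineuronal nets and hyaluronan matrix, HAPLN3, which links hyaluronan to proteoglycans, was higher without overlap, at 0.390 to 1.85 FPKM at D1 and 2.41 to 13.7 FPKM at M2 (2.41, SE 0.57). HAPLN1, another member of that family, and CD44, the hyaluronan receptor, were lower (-1.33 and -1.17). Without M2 replicates 1 and 3, 0 of the 17 were lower and 1 was higher, and the same counts came with the mapping rate as a covariate.

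The neuropeptide and hypothalamic hormone list had 29 genes tested. With all libraries none was past the threshold, and the median of -0.10 turned to 0.09 after quantile normalization. With the mapping rate as a covariate 3 were higher and 0 lower, beside 3.52% of all genes higher, and the median was 1.305. Without M2 replicates 1 and 3, 0 passed in either direction and the median was 0.29. Without D1 replicate 4, 1 was lower, beside 8.22% of all genes, and the median was 0.17. GNRH1, which drives the reproductive axis, was 7.96 FPKM in D1 replicate 1 and 14.6 FPKM in M2 replicate 4, and at most 1.19 FPKM in the others. POMC was 1.06 to 4.38 FPKM at D1 and 1.31 to 5.63 FPKM at M2. TAC1, the precursor of substance P, was 461 FPKM in D1 replicate 4 and 118 FPKM in M2 replicate 4, and at most 24.1 FPKM elsewhere. The SEs of AVP, OXT, PMCH and HCRT were 1.70 or more on the log2 scale.

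Of 23 hypothalamic transcription factors tested, FOXB1, which marks the mammillary region, was the only one past the threshold. It was 0.566, 0.510, 0.0532, 0.0134 and 0.414 FPKM at D1 and 1.03, 1.49, 5.88, 0.599 and 0.840 FPKM at M2 without overlap (2.18, SE 0.70). With the mapping rate as a covariate 0 of the 23 passed, and the list median went from 0.07 to 0.66. Without M2 replicates 1 and 3, 1 of the 23 was higher and the median was 0.13. OTP and SIM1, both needed for neurons of the paraventricular nucleus, had values of -0.49 and -0.05 with SEs of 1.22 and 1.21, and that of SIM1 was 0.01 after median-ratio scaling. Of 30 receptors for steroids, kisspeptin and feeding signals, 2 were higher, beside 6.25% of all genes. NR3C2, the mineralocorticoid receptor, was 6.25 to 9.29 FPKM at D1 and 6.97 to 16.7 FPKM at M2 (0.56, SE 0.23). GNRHR, the GnRH receptor, was at most 0.103 FPKM at D1 and 0.054 to 2.20 FPKM at M2. Of 17 genes tied to the timing of puberty, ERBB2 (0.96) and ERBB4 (0.71), receptors through which glia act on GnRH neurons, were higher, beside 6.25% of all genes. Without M2 replicates 1 and 3, 0 of the 17 were higher, beside 2.16% of all genes, and the median went from 0.16 to 0.19. With the mapping rate as a covariate 1 was higher, beside 3.52% of all genes, and the median was 0.40.

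Among growth and clock signals, single genes passed the unadjusted threshold, beside 6.25% of all genes higher and 9.35% lower at M2. IGF1R, the receptor of insulin-like growth factor, was 7.47 to 10.96 FPKM at D1 and 12.6 to 21.9 FPKM at M2 without overlap (0.68, SE 0.25). It was the only one of 17 IGF genes to pass. Without M2 replicates 1 and 3, 0 of the 17 passed, beside 2.16% of all genes higher and 2.51% lower. Of 16 thyroid hormone genes, 2 were lower, among them KLF9. Of 20 clock genes, the repressor CRY1 was lower (-0.60, SE 0.23) and 1 gene was higher. Of 22 neurotrophic genes, 1 was higher. SFRP1, a secreted inhibitor of Wnt signals, was 48.5, 41.1, 34.0, 17.0 and 37.0 FPKM at D1 and 5.77, 17.8, 18.5, 9.005 and 14.6 FPKM at M2 (-1.47, SE 0.49), and its log2 fold changes at M4 and M6 against the same D1 libraries were -1.76 and -1.78. None of 23 immediate early genes and none of 21 monoamine and acetylcholine genes was past the threshold.

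The remaining lists had few members past the unadjusted threshold, beside 6.25% of all genes higher and 9.35% lower at M2. Among cell types, 0 of 11 pericyte and smooth muscle genes, 0 of 9 choroid plexus genes, 0 of 18 ependymal genes and 0 of 22 cortical, hippocampal, striatal and thalamic genes passed it, while 1 of 8 tanycyte genes was lower and 1 of 5 anterior pituitary genes, GNRHR, was higher. Of 9 genes of perivascular macrophages and other immune cells only S100A8 was lower, and 3 of the 9 were lower without M2 replicates 1 and 3. Of 18 genes of ketone bodies and fatty acid oxidation, 2 were higher and 1 (SLC16A1) was lower. Among 35 genes of Notch, Wnt and hedgehog signals, 2 were higher and SFRP1 was the only lower gene. Of 21 genes of DNA methylation and chromatin 1 was lower, and of 27 adhesion genes of developing neurons 2 were higher and 1 was lower. Without M2 replicates 1 and 3, 2.16% of all genes were higher and 2.51% were lower. In that fit 0 of the ketone and fatty acid oxidation genes passed in either direction. The same held for the 20 microglia, 16 astrocyte, 5 pituitary and 24 interferon genes. None of 21 genes of complement, iron and oxidative handling passed it, and their median of -0.21 turned to 0.03 after quantile normalization.

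The genes higher and lower at M2 also differed in genomic span, the distance from the start to the end of a gene in the annotation. The median span was 46332.5 bp for the 954 higher genes with a position, 20025.5 bp for the 1564 lower genes, and 22775 bp for all 16332 genes. Among the 3267 genes with the longest span, 10.3% were higher and 5.23% lower, and the median log2 fold change was 0.05. Among the 3267 with the shortest span, 3.43% were higher and 8.97% lower, and the median was -0.17. The medians without M2 replicates 1 and 3 were 0.06 and -0.11, and with the mapping rate as a covariate 0.11 and 0.04. The part of genomic span in the results above was not tested.

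**Figure D5:**
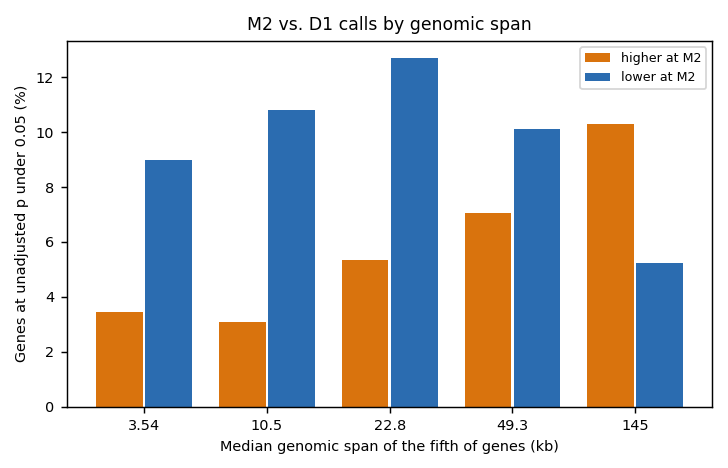
Percent of genes at an unadjusted p under 0.05, higher (orange) and lower (blue) at M2, in 5 bins of the genes ordered by genomic span, labelled by the median span in kb. The share of higher genes goes from 3.43% in the shortest bin to 10.3% in the longest, where lower genes make up 5.23%.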

How the data were processed

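RNA of 20 hypothalami was sequenced from strand-specific libraries depleted of ribosomal RNA. After trimming with fastp, the authors used HISAT2 2.0.5 to align reads to the goat assembly ARS1.2 and StringTie 1.3.3b to assemble transcripts, and they calculated FPKM per gene. These deposited FPKM values were analysed here. The reads behind each value are unknown, so precision rests on the spread between goats. FPKM is relative, so a very abundant gene lowers the rest of its library.

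A gene was tested if 5 or more of all 20 libraries reached 0.1 FPKM (16771 of 21071 genes). The log2(FPKM + 0.1) values, which understate fold changes of genes near 0.1 FPKM, entered 1 limma 3.58.1 model (R 4.3.3) of the 4 stages with a variance trend. DEGs required a Benjamini-Hochberg adjusted p under 0.05 over all genes tested together with a log2 fold change beyond 1 in size. Unadjusted p values came from the same model. The model was tested on simulated data. Measures per library were compared by exact permutation tests (scipy 1.17.1). The alternatives changed the pseudocount, filter, libraries, scaling, variance trend, library weights, replicate block and mapping rate, the last of which was taken from the study's supplementary data.

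Groups followed the age labels, with 1 goat per library. Named genes were the 15 of smallest p in each direction without overlap between stages and with a mean of at least 1 FPKM in the higher stage (since no DEG was called), up to 4 of smallest p in each list, and the defining markers. The 49 lists (18 of cell types, 31 of functions) were matched by symbol (1058 of 1129 genes). Members and lists were chosen with earlier results of these data known. ACAT2, FDPS, MSMO1, KLHDC1, AVP, OXT, PMCH, HCRT, GNRH1 and POMC were named after their values were seen. Some genes that met the rule are not reported here.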

Additional observations from a re-analysis of the deposited data

Results flagged for a closer look

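Within each stage, a library was marked where its gap to the nearest of the other 4 was large for the range of the 5 by Dixon's test at the 0.05 level. Of 236 groups of 5 libraries tested over the named genes, 33 were marked. Chance marks about 1 in 20 only for normally distributed values and genes chosen without seeing them. Some genes here were named after their values were seen, so nothing is concluded from the number of marks. M2 replicates 1 and 3 held 13 of these marks.

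M2 replicate 1 was the highest M2 library for CSMD2 (18.8 FPKM, next 8.49), ZBTB7C (119.5, next 40.6), ARID3B (11.5, next 4.64), IGF1R (21.9, next 14.1), OXT (4.47, next 1.28) and HCRT (19.5, next 3.52), and the lowest for ALG11 (2.80 FPKM, next 5.51). M2 replicate 3 was the highest for CLDN5 (91.1 FPKM, next 36.5), COL3A1 (45.9, next 6.75), COL1A1 (40.4, next 1.69), COL27A1 (21.8, next 5.36), HBBC (41.3, next 6.63) and FOXB1 (5.88, next 1.49). M2 replicate 4 was the highest for S100A8 (0.587 FPKM), GNRH1 (14.6 FPKM) and TAC1 (118 FPKM).

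D1 replicate 1 was the highest D1 library for AVP (176 FPKM), OXT (22.6 FPKM), PMCH (303 FPKM), HCRT (9.02 FPKM), OTP (2.98 FPKM) and GNRH1 (7.96 FPKM), 6 genes of hypothalamic neurons. D1 replicate 2 was the highest for CSMD2 (4.19 FPKM), GALNT18 (35.9 FPKM) and SLCO1A2 (22.5 FPKM), and D1 replicate 3 for SLIT3 (5.38 FPKM). D1 replicate 4 was the lowest for SLC16A1 (9.67 FPKM, next 26.4) and OLIG1 (18.98 FPKM, next 66.9), and the highest for GRM3 (46.4 FPKM) and TAC1 (461 FPKM). D1 replicate 5 was the highest for SPTLC1 (67.8 FPKM), VIM (227 FPKM) and TYROBP (23.1 FPKM).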

How the results depend on the processing

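The number of DEGs (0 as reported) was 2 with a pseudocount of 1 FPKM (1 higher and 1 lower), 1 (lower) without a filter on low values, 1 (lower) with only the D1 and M2 libraries, 1 (lower) without a variance trend, and 148 with library quality weights (91 higher and 57 lower). Leaving out 1 library in turn gave 0 to 10 DEGs, 0 to 2 higher and 0 to 9 lower, with 10 without D1 replicate 4 and 2 without M2 replicate 5. At the unadjusted threshold, the mapping rate as a covariate gave 590 higher and 437 lower genes, and leaving out M2 replicates 1 and 3, chosen after seeing the data, gave 360 and 417. Leaving out 1 library gave 559 to 1378 higher and 895 to 2129 lower genes, with the lowest counts without M2 replicate 1.

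Of the cholesterol genes (15 lower), 9 were lower after quantile normalization, 7 with the covariate, 9 without M2 replicates 1 and 3, and 9 to 18 with 1 library left out. Of the cell cycle genes (12), 5 were lower at a mean of at least 1 FPKM, 7 without M2 replicates 1 and 3, and 6 to 16 with 1 library left out, the lowest without D1 replicate 1. Of the nuclear respiratory genes (11), 6 were lower with only 10 libraries, 2 after quantile normalization, 0 with the covariate, 1 without M2 replicates 1 and 3, and 3 to 14 with 1 library left out. Of the chaperone genes (8), 2 were lower after quantile normalization, 5 with quality weights, 0 with the covariate, 0 without M2 replicates 1 and 3, and 2 to 8 with 1 library left out. The lowest counts of both came without M2 replicate 1. The difference in summed FPKM (-11763) was -31180 without the highest gene of each library (exact permutation p = 0.0317) and -18739 to -4645 with 1 library left out. The cause of these shifts was not tested.

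Of 118 named genes, 8 changed sign with the covariate, 4 after median-ratio scaling and 2 after quantile normalization. With quality weights 37 had an adjusted p under 0.05 in limma. Libraries with the same replicate number shared only a number: their correlations ranged from -0.177 to 0.43, and 4 of 10 libraries correlated best with their own number. The replicate block gave 0 DEGs, with 997 higher and 1540 lower genes at the unadjusted threshold, and 15 cholesterol, 11 cell cycle, 10 nuclear respiratory and 7 chaperone genes lower.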
